A study of Mus musculus with 11 samples.

Results

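The collagen genes of the mouse were followed through hearts of Pde2A-/- and Pde2A+/+ embryos. They were taken as the protein-coding genes whose symbol reads Col, a number, the letter a and a number, which gave 44 of the 55487 genes counted in the files. All 44 had at least 10 reads over the 11 hearts and were tested, among 24177 genes tested in all. Phosphodiesterase 2A breaks down the second messengers cAMP and cGMP, and embryos that lack it develop heart defects. Poly(A) RNA from 11 hearts was sequenced, each as 1 stranded library: 5 from Pde2A-/- embryos (KO A, KO B, KO 14, KO D and KO 15) and 6 from Pde2A+/+ embryos (WT 7, WT 11, WT 6, WT 8, WT H and WT E). Both groups carried the B6; 129P2-Pde2A<tm1Dgen> background and were collected untreated at E14.5 from matings of heterozygous parents, with male and female embryos taken. The null allele is present in every cell of the embryo, so the hearts also lacked Pde2A in their vessels and blood, and neither the litter nor the day of collection is given in the sources used here. The question asked of these libraries was how the transcriptome of the heart differs between the genotypes.

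Counts assigned to genes ran from 35865537 to 42835382 per heart, and 19.6% to 22.4% of the reads of a heart were not placed on a gene. The 2 annotated genes at the Pde2a locus, Pde2a and Gm45837, share nearly their whole length on the same strand of chromosome 7, and over all 11 hearts they held only 7 and 4 counts, so this count table does not check the genotypes. The WT hearts 7 and 11 stood apart in an epithelial marker, with Epcam at 15.4 and 16.6 CPM (counts scaled to a common library size) against 0.199 to 1.49 CPM in the other 9 hearts, and WT 11 held the lung and thyroid factor Nkx2-1 at 5.22 CPM against 0 to 0.274 CPM elsewhere. The KO hearts B and D stood apart in a skeletal muscle marker, with Myh3, the embryonic skeletal myosin, at 71.0 and 86.7 CPM against 0.392 to 16.7 CPM in the other 9 hearts, and Myog at 4.08 and 2.42 CPM against 0.705 to 2.20 CPM. None of 8 skeletal muscle markers was called between the groups, and their list summed to 397 to 679 CPM in KO and 328 to 704 CPM in WT hearts. Most of that sum was Ckm, at 391 to 586 CPM in KO and 319 to 681 CPM in WT hearts. The sum therefore says little about Myh3, Myog and the other markers of that list. For collagen and pathway genes, calls that were lost without WT 7 and WT 11, or without KO B and KO D, are given with their values in those fits. For cell type markers those fits are not given. Both fits were added after the data were seen and hold 9 hearts each, and the part of the epithelial or muscle reads in a lost call was not tested. Xist, a marker of female embryos, was at 372 CPM in KO A, 403 CPM in KO 14 and 263 CPM in WT 8. In the other hearts it was at 0.0272 to 0.199 CPM. Sex was not part of the main fit. The heart itself was plainly marked: the summed level of 10 cardiomyocyte markers was 33900 to 45010 CPM in WT hearts and 34550 to 41970 CPM in KO hearts. Myh7 alone was at 10800 to 16880 CPM in WT hearts, so the sum says little about single markers. Of the 10, Nppa rose (log2 fold change 0.87 ± 0.19, SE), Ttn fell (-0.51 ± 0.11) and the others were not called. In all, 3 lay above 0 and 7 below.

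Collagens are the main structural proteins of connective tissue. Each chain is a string of Gly-X-Y triplets, in which glycine takes the first place and proline, often hydroxylated, is common at the third, and chains wind around each other into a rope-like helix. Fibrillar collagens (types I, II, III, V, XI, XXIV and XXVII) build the rods and fibres that carry tension in the heart's valves and interstitium. Type IV chains form the sheet-like network of basement membranes around cardiomyocytes and vessels, and multiplexins (types XV and XVIII) hang between that sheet and the fibres. Type VI forms beaded filaments near cells, FACIT collagens sit on the surface of fibrils, and transmembrane collagens stay anchored in the cell that makes them. Before secretion, prolyl and lysyl hydroxylases modify the chains and the chaperone HSP47 holds the folded helix, and outside the cell proteinases trim the ends and lysyl oxidases cross-link them.

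The coding sequences show how some of these classes differ. The choice of genes by symbol did not use sequence, but the classes follow the collagen types, so the sequences describe the classes and do not test them. Below are 3 stretches of coding sequence from the annotated transcripts (GENCODE M21, GRCm38), for a fibrillar, a type IV and a transmembrane chain, with the glycine codons in capitals. They run over codons 675 to 695 of Col1a1, 1341 to 1361 of Col4a1 and 227 to 247 of Col23a1.
Col1a1: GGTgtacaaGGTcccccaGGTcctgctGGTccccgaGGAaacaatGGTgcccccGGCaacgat
Col4a1: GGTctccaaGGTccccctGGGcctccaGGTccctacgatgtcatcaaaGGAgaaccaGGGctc
Col23a1: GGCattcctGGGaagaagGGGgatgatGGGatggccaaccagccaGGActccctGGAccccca
In Col1a1, from the middle of its longest run, a glycine codon opens each triplet without a gap. The other stretches cross the end of the longest run of triplets, and there the spacing of the capitals breaks.

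Counted over runs of 4 or more triplets, the 11 fibrillar genes had 2 to 4 runs and a longest run of 216 to 344 triplets. The 6 type IV genes had 22 to 27 runs with a longest run of 39 to 66 triplets, so their helix was interrupted far more often. Type VI, transmembrane and FACIT genes had longest runs of 37 to 87, 40 to 55 and 32 to 113 triplets, which overlap the type IV range. They had 3 to 6, 5 to 17 and 2 to 21 runs. Col15a1 and Col18a1, the multiplexins, had 12 and 16 runs, with a longest run of 30 triplets in both. The share of triplets with proline at the third place, the place that prolyl 4-hydroxylases modify, ran from 22.4% in the lowest type VI gene to 55.6% in Col4a5. Lysine at the third place, the substrate of lysyl hydroxylases, had a median share of 11.3% in the fibrillar genes, 13.8% in type IV, 17.1% in type VI and 19.6% in the transmembrane genes.

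**Figure D1:**
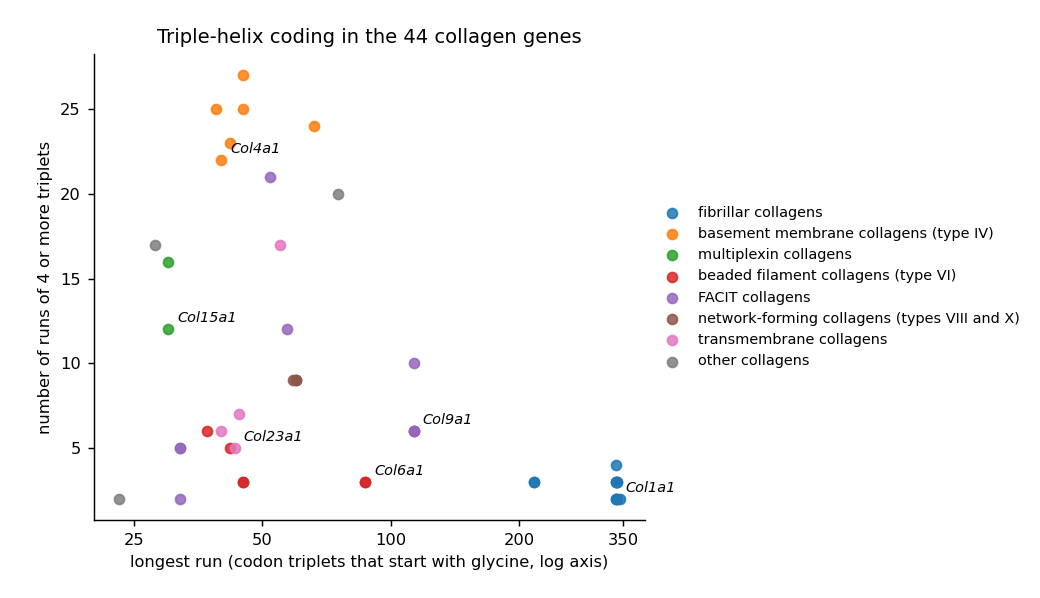
Each point is 1 of the 44 collagen genes, by the length of its longest run of Gly-X-Y codon triplets (horizontal, triplets, log axis) and the number of runs of 4 or more triplets (vertical), coloured by class. Fibrillar genes sit at 216 to 344 triplets in 2 to 4 runs and type IV genes at 39 to 66 triplets in 22 to 27 runs.

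In the WT heart the family was dominated by a few genes of the interstitial fibres and the basement membrane. Per kilobase of transcript, Col3a1, the type III chain of pliable fibres, stood highest at 512 ± 84.1 CPM per kb (mean ± SD, n = 6). Col1a1 and Col1a2, the chains of type I collagen, followed at 402 ± 139 and 374 ± 108 CPM per kb. The ranges of these 3 genes over the WT hearts overlapped. Within each WT heart, however, Col3a1 lay above Col1a1, at a log2 ratio per kilobase of 0.0515 to 0.717. The order of Col1a1 and Col1a2 changed between WT hearts, with a log2 ratio from -0.036 to 0.183. Col4a1, a chain of the common basement membrane network, had 243 ± 18.0 CPM per kb, and its highest heart at 262 CPM per kb passed the lowest Col1a2 heart at 255 CPM per kb. Col4a2, its partner chain, had 148 ± 11.3 CPM per kb and lay below Col4a1 in range. Col18a1, the precursor of endostatin, had 105 ± 6.50 CPM per kb and lay below Col4a2 in range. Col5a2 and Col5a1, chains of the type V collagen that nucleates type I fibrils, had 82.5 ± 13.4 and 64.4 ± 6.63 CPM per kb, and the ranges of Col18a1 and Col5a2, and of Col5a2 and Col5a1, overlapped. Within each WT heart Col5a2 lay above Col5a1, at a log2 ratio of Col5a1 to Col5a2 from -0.579 to -0.172. At the other end, 5 genes averaged under 1 CPM over all 11 hearts (Col10a1, Col19a1, Col20a1, Col28a1 and Col6a4) and the lowest per kilobase was Col19a1, with 0.0195 CPM per kb.

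All collagen genes together took 1.26%, 1.25%, 1.48%, 1.70% and 1.55% of the gene counts in KO A, KO B, KO 14, KO D and KO 15. The WT hearts lay between 1.07% and 1.67%, with a median of 1.28%, so the groups overlapped over nearly the whole range. The means were 1.45% ± 0.191 (SD, n = 5) in KO and 1.34% ± 0.231 (SD, n = 6) in WT hearts. Fibrillar genes held 56.3% to 70.6% of the collagen counts of a heart and type IV genes 16.5% to 27.4%. In absolute percent of all counts, the fibrillar share had the widest range of the classes, from 0.608% in WT 6 to 1.18% in WT 11, and that spread lay within the WT group.

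**Figure D2:**
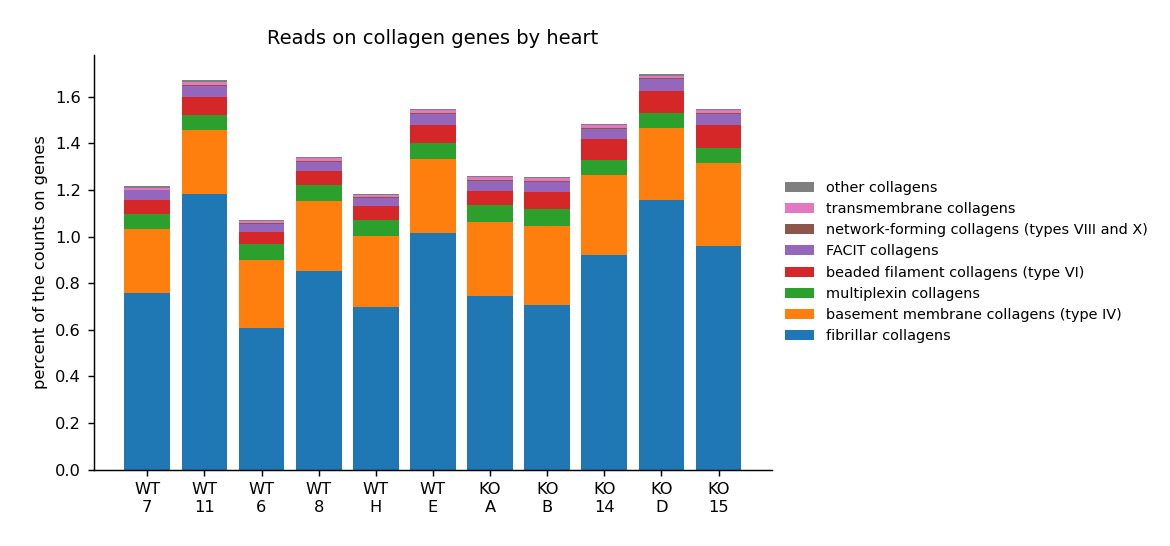
Each bar is 1 heart, its height is the percent of that heart's gene counts on the 44 collagen genes, and the colours split it by class. The KO bars reach 1.25% to 1.70% and the WT bars 1.07% to 1.67%, and the fibrillar part makes up 56.3% to 70.6% of every bar.

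Between the genotypes, 4 of the 44 collagen genes rose (Col23a1, Col9a1, Col6a1 and Col4a1) and 1 fell (Col15a1) in KO hearts, by the quasi-likelihood test of edgeR, with p-values adjusted after Benjamini and Hochberg over all genes tested and called under 0.05. That is 9.09% of the collagen genes called higher, beside 8.93% of all genes tested, and 2.27% called lower, beside 5.67% of all. Both shares lay near or below the background, so the family as a whole did not stand out by its calls. A mean of 1 CPM in WT hearts was reached by 39 of the 44, beside 13971 of the 24177 genes tested. The all-gene shares thus rest on more genes at low levels. Without WT 7 and WT 11 the calls were 2 higher (Col23a1 and Col9a1) and 1 lower, and without KO B and KO D they were 1 higher (Col23a1) and 1 lower, Col15a1 in both. The median log2 fold change of the 44 genes was 0.07, beside -0.02 over all genes, with 30 genes above 0 and 14 below. With a fold of at least 1.5 asked in addition, 1 collagen gene was higher (2.27%, beside 4.06% of all genes) and 1 lower (2.27%, beside 0.889%). At an unadjusted p under 0.05, 9 were higher (20.5%, beside 15.6%) and 3 lower (6.82%, beside 14.9%). In whole hearts, more or fewer cells of a type and more or less RNA per cell cannot be told apart.

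**Figure D3:**
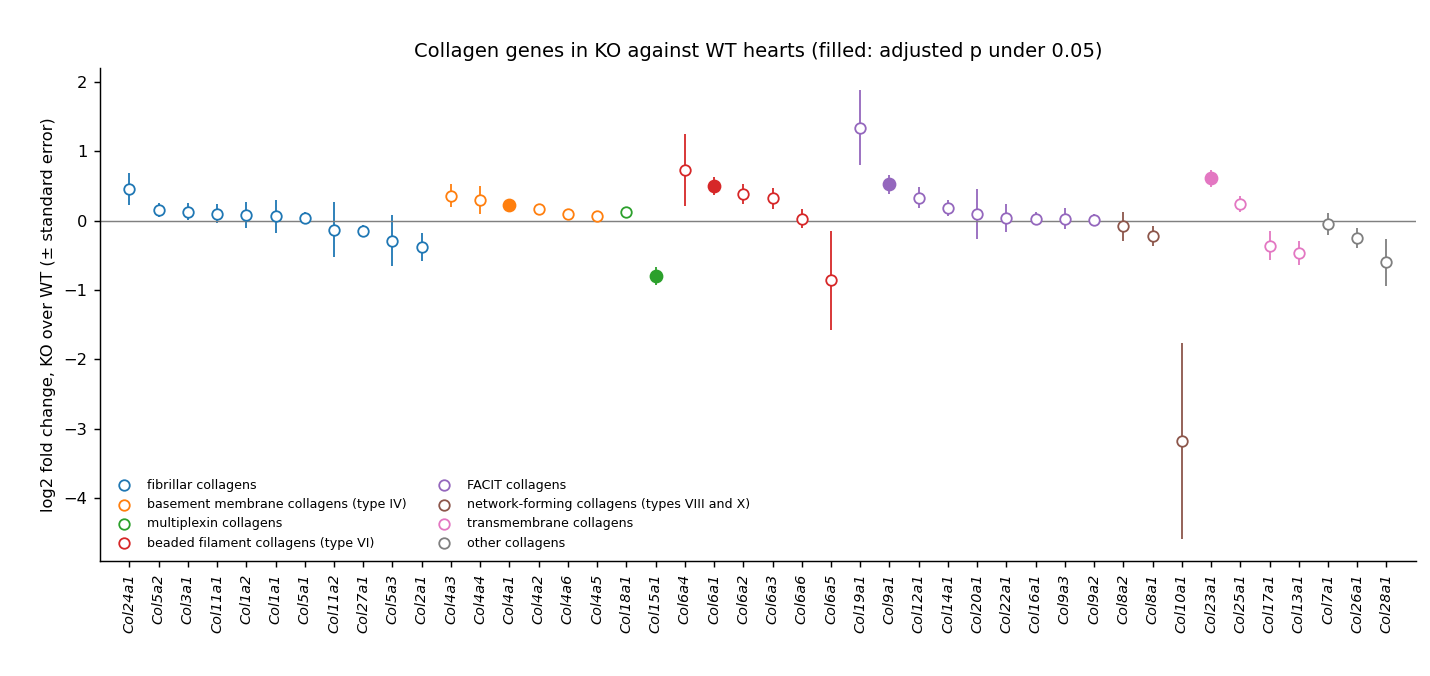
Points give the log2 fold change of each collagen gene, KO over WT (vertical, ± standard error), grouped and coloured by class and sorted within it, with filled points where the adjusted p was under 0.05. The filled points are Col4a1, Col6a1, Col9a1 and Col23a1 above 0 and Col15a1 below, and the lowest open point, Col10a1 at -3.17 ± 1.41, rests on 53 counts over all hearts, of which 35 came from WT 11.

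None of the 11 fibrillar collagens was called, and their median log2 fold change was 0.06, with 7 above 0 and 4 below. Col3a1 had 2707, 2508, 3105, 3730 and 3495 CPM in KO A, KO B, KO 14, KO D and KO 15, and 2272, 2706 and 3544 CPM as lowest, median and highest WT heart. All KO hearts but KO D lay inside the WT range, and the log2 fold change was 0.13 ± 0.12 (SE; edgeR adjusted p = 0.535). Col1a1 had 1730, 1771, 2558, 3621 and 2771 CPM in the KO hearts and 1473, 2203 and 3645 CPM as lowest, median and highest in WT. Col1a2 had 1641, 1663, 2261, 2738 and 2282 CPM in the KO hearts and 1362, 1856 and 2915 CPM in the same order in WT. For both type I chains every KO heart fell inside the WT range, with KO D high and KO A low in one group and WT 11 high and WT 6 low in the other. Their log2 fold changes were 0.06 ± 0.24 and 0.08 ± 0.19 (edgeR adjusted p = 0.895 and 0.823), and the sign of both turned when KO D or WT 6 was left out. The value for Col1a1 was -0.02 without KO B and KO D.

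Col5a1 had 512, 523, 533, 598 and 613 CPM in the KO hearts and 474, 533 and 629 CPM as lowest, median and highest in WT. Col5a2 had 595, 566, 597, 675 and 598 CPM in the KO hearts and 454, 525 and 675 CPM in WT. The KO hearts of Col5a1 lay inside the WT range, and for Col5a2 only KO D passed it, by a hair (675.2 against 674.9 CPM). The other fibrillar genes were Col11a1, Col24a1, Col27a1, Col2a1, Col5a3 and Col11a2, with log2 fold changes from -0.38 for Col2a1, the main collagen of cartilage, to 0.45 for Col24a1 (edgeR adjusted p = 0.227 and 0.212). Single hearts recurred at the extremes: over the 39 collagen genes that averaged 1 CPM or more, WT 11 was the highest of all hearts in 13 and WT 6 the lowest in 12. KO D was the highest of all hearts in 7.

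All 6 type IV collagens lay above 0, with a median log2 fold change of 0.19 and 1 call. Col4a1 had 1703, 1933, 1910, 1740 and 2079 CPM in KO A, KO B, KO 14, KO D and KO 15, against 1441, 1629 and 1736 CPM as lowest, median and highest WT heart. KO A lay inside the WT range and KO D only just above it, while the other 3 KO hearts were clear of it. The log2 fold change was 0.22 ± 0.07 (SE), a 1.17-fold rise (edgeR adjusted p = 0.0387). That call held in only 3 of the 11 fits with 1 heart removed, with an adjusted p of up to 0.0983 (without KO 15), and without WT 7 and WT 11 the value was 0.16 (adjusted p = 0.131). Without KO B and KO D it was 0.24 (adjusted p = 0.0848). Col4a2, on the opposite strand of chromosome 8 with its start overlapping that of Col4a1 (Col4a1 at chr8:11198423-11312826, Col4a2 at chr8:11312805-11449287), had 986, 1116, 1120, 925 and 1188 CPM in the KO hearts and 852, 987 and 1015 CPM in WT. KO B, KO 14 and KO 15 lay above the WT range, and the log2 fold change was 0.16 ± 0.07 (edgeR adjusted p = 0.154). The minor chains Col4a3 and Col4a4, and Col4a5 and Col4a6 on the X chromosome, lie in the same head-to-head pairs and had log2 fold changes of 0.36, 0.30, 0.06 and 0.09, none of them called.

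Beside the type IV genes, 3 of 10 endothelial markers rose and none fell, where 8.93% of all genes tested rose and 5.67% fell. The summed level of the endothelial markers was 1569 to 1761 CPM in KO and 1283 to 1537 CPM in WT hearts, without overlap. Pecam1, an adhesion molecule of endothelial junctions, rose by 0.34 ± 0.07 and Emcn, endomucin, by 0.50 ± 0.09 on the log2 scale. Both passed the threshold in all 11 fits that left out 1 heart. Egfl7, the other call, was at 0.22 ± 0.07 and passed it in 3 of them. Every marker of that list was detected, at a level above 0 CPM in every heart. Their part in the type IV values was not tested.

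Of the multiplexins, 1 fell and the other was not called. Col15a1 (ENSMUSG00000028339, chr4:47208161-47313167), a proteoglycan collagen that ties basement membranes to nearby fibrils, had 53.7, 49.1, 45.8, 50.7 and 45.5 CPM in KO A, KO B, KO 14, KO D and KO 15. The WT hearts had 58.7 CPM at the lowest (WT 8), 80.9 at the median and 107 at the highest (WT E). Every KO heart lay below every WT heart, which held for 3.11% of all genes tested and for no other collagen gene. The log2 fold change was -0.80 ± 0.13 (SE), or 0.574-fold (edgeR adjusted p = 0.00171). It stayed between -0.88 and -0.72 in the 11 fits that left out 1 heart, all of them past the threshold. Without WT 7 and WT 11 it was -0.85 (adjusted p = 0.00478), and without KO B and KO D it was -0.82 (adjusted p = 0.0186). Col18a1, the other multiplexin, had 664, 698, 606, 604 and 631 CPM in the KO hearts and 543, 580 and 642 CPM as lowest, median and highest in WT. KO A and KO B lay above the WT range, and its log2 fold change was 0.13 ± 0.06 (edgeR adjusted p = 0.141).

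Type VI genes had the highest median of the classes, 0.35 on the log2 scale, with 5 of 6 above 0 and 1 call. Col6a1 (ENSMUSG00000001119, chr10:76708792-76726168), a chain of the common type VI trimer, had 213, 253, 318, 310 and 376 CPM in KO A, KO B, KO 14, KO D and KO 15, against 174, 201 and 248 CPM as lowest, median and highest WT heart. KO A lay inside the WT range and the other 4 KO hearts above it. The log2 fold change was 0.50 ± 0.13 (SE), a 1.41-fold rise (edgeR adjusted p = 0.0243). The call was lost without KO 14, KO 15, KO D, WT 6 or WT 8 (adjusted p from 0.0539 to 0.0691), and without both WT 7 and WT 11 the value was 0.52 with an adjusted p of 0.0508. It was 0.54 with an adjusted p of 0.0589 without KO B and KO D.

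The partner chains lay close to it. Col6a2, its neighbour on chromosome 10, had 241, 278, 352, 357 and 403 CPM in the KO hearts and 207, 231 and 310 CPM in WT, with a log2 fold change of 0.38 ± 0.14 (edgeR adjusted p = 0.0812). Col6a3 had 107, 148, 157, 192 and 178 CPM in the KO hearts and 95.5, 122 and 160 CPM in WT, with a log2 fold change of 0.32 ± 0.15 (edgeR adjusted p = 0.173). KO A was the lowest KO heart in all 3 genes, and without it Col6a2 and Col6a3 passed the threshold too (adjusted p = 0.0192 and 0.03). The 3 genes of a second cluster on chromosome 9, Col6a4, Col6a5 and Col6a6, had log2 fold changes of 0.73, -0.86 and 0.03 with standard errors of 0.52, 0.71 and 0.13, and none was called. Without WT 7, Col6a4 passed the threshold at 1.41 (edgeR adjusted p = 0.0378), but it held only 143 counts over all hearts. Beside the type VI and fibrillar genes, 4 of 10 fibroblast markers rose (Tcf21, Pdgfra, Meox1 and Fbln1) and none fell. Of all genes tested, 8.93% rose and 5.67% fell. The 4 calls held in 10, 11, 11 and 6 of the 11 fits that left out 1 heart. The fibroblast list summed to 709 to 943 CPM in KO and 590 to 769 CPM in WT hearts, with overlap. Of other cells that make collagen, 1 of 10 epicardial markers (Tbx18) and 2 of 10 smooth muscle and pericyte markers (Cnn1 and Kcnj8) fell and none rose, and none of 6 bone markers tested was called. The calls of Tbx18, Cnn1 and Kcnj8 held in only 4, 4 and 1 of the 11 fits that left out 1 heart. Every fibroblast marker was detected, at a level above 0 CPM in every heart, and the part of these cells in the collagen values was not tested.

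All 9 FACIT genes lay above 0, with a median of 0.10 and 1 call. Col9a1 (ENSMUSG00000026147, chr1:24177610-24252684), a chain of the type IX collagen that coats type II fibrils in cartilage, had 21.6, 22.3, 16.7, 18.8 and 15.2 CPM in KO A, KO B, KO 14, KO D and KO 15. The WT hearts had 11.01, 12.96 and 16.5 CPM as lowest, median and highest, and all KO hearts but KO 15 lay above them. The log2 fold change was 0.52 ± 0.13 (SE), a 1.43-fold rise (edgeR adjusted p = 0.0185), and it passed the threshold in all 11 fits that left out 1 heart and without WT 7 and WT 11 (0.54, adjusted p = 0.0257). The call was lost without KO B and KO D, where the value was 0.43 (adjusted p = 0.0932). Col9a2 and Col9a3, the other chains of type IX, had log2 fold changes of 0.01 ± 0.09 and 0.03 ± 0.15. None of the 11 cartilage markers tested was called, their median log2 fold change was -0.03, and their summed level was 58.6 to 97.1 CPM in KO and 61.2 to 92.6 CPM in WT hearts. Of these 11 markers 7 reached a mean of 1 CPM in WT hearts, and Snorc, also listed, stayed below the count minimum. Their part in the Col9a1 value was not tested.

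Col12a1 and Col14a1, FACITs of dense connective tissue, had log2 fold changes of 0.33 ± 0.15 and 0.18 ± 0.11 (edgeR adjusted p = 0.147 and 0.290), and without KO A Col12a1 passed the threshold at 0.43 (adjusted p = 0.0389). Col16a1, Col19a1, Col20a1 and Col22a1 completed the class at 0.03, 1.34, 0.10 and 0.04. Col19a1, the neighbour of Col9a1 on chromosome 1, was at 0 to 0.163 CPM in WT and 0.110 to 0.389 CPM in KO hearts, and its standard error was 0.54.

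Among the transmembrane collagens, Col23a1 (ENSMUSG00000063564, chr11:51289920-51583918), which is anchored in the cell membrane with its helix outside, had 89.9, 105, 82.3, 77.1 and 83.3 CPM in KO A, KO B, KO 14, KO D and KO 15. The WT hearts had 41.4 CPM at the lowest (WT H), 62.03 at the median and 66.4 at the highest (WT 11). Every KO heart lay above every WT heart, which held for 5.38% of all genes tested and for no other collagen gene. The log2 fold change was 0.61 ± 0.12 (SE), a 1.52-fold rise (edgeR adjusted p = 0.00612). It stayed between 0.53 and 0.65 in the 11 fits that left out 1 heart, all past the threshold, and was 0.60 without WT 7 and WT 11 (adjusted p = 0.0162) and 0.57 without KO B and KO D (adjusted p = 0.0303).

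The other transmembrane genes were not called. Col13a1, found at cell junctions with muscle and matrix, had 26.9, 21.1, 17.5, 12.9 and 12.3 CPM in the KO hearts and 21.05, 25.5 and 28.1 CPM as lowest, median and highest in WT, so KO 14, KO D and KO 15 lay below the WT range and KO A near its top. Its log2 fold change was -0.47 ± 0.17 (edgeR adjusted p = 0.0817), and without KO A it was -0.65 (adjusted p = 0.00737). Col17a1, of epithelial hemidesmosomes, and Col25a1, best known from neurons, had log2 fold changes of -0.36 ± 0.21 and 0.24 ± 0.12.

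The network-forming genes Col8a1, Col8a2 and Col10a1 and the remaining genes Col7a1, Col26a1 and Col28a1 all lay below 0 and none was called. Col8a1 and Col8a2, of the vessel wall and heart valves, had log2 fold changes of -0.22 ± 0.14 and -0.08 ± 0.21. Col26a1, Col28a1 and Col7a1, the last being the anchoring fibril of skin, had -0.25 ± 0.14, -0.60 ± 0.34 and -0.05 ± 0.16. The values of Col7a1 and Col8a2 were 0.00 and 0.06 without WT 7 and WT 11, and 0.04 and 0.06 without WT 11 alone. They also left the negative side without 1 KO heart, at 0.05 for Col7a1 without KO D and 0.00 for Col8a2 without KO B.

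**Figure D4:**
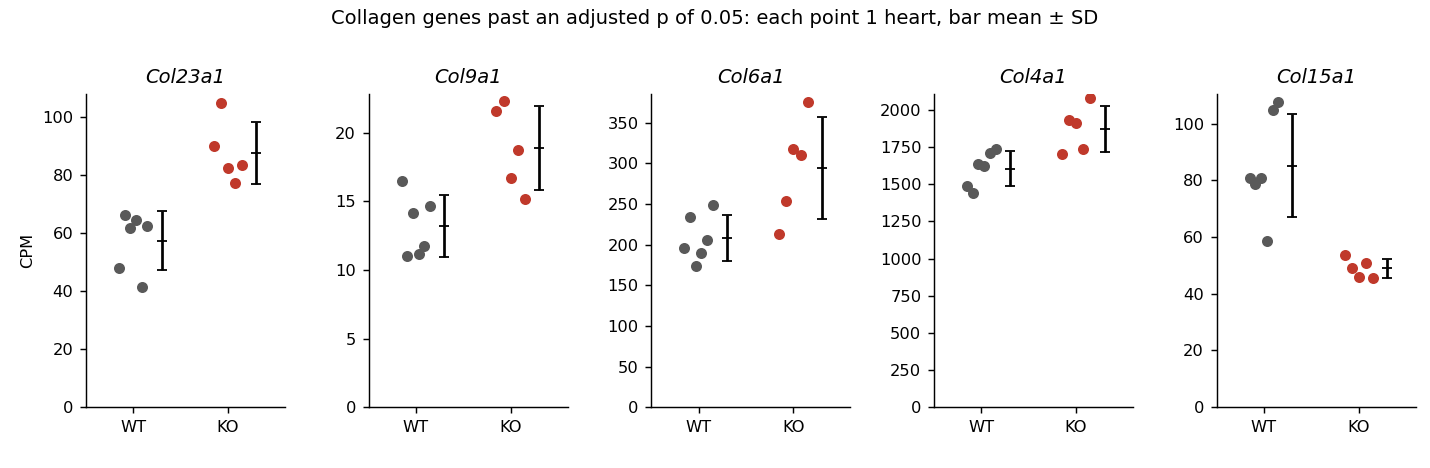
Each point is 1 heart (WT grey, KO red), in CPM on a linear axis from 0, for the 5 collagen genes past an adjusted p of 0.05, with the mean and SD beside the points. Col23a1 and Col15a1 separate the groups completely, at 77.1 to 105 CPM against 41.4 to 66.4 CPM and at 45.5 to 53.7 CPM against 58.7 to 107 CPM, and the other 3 genes overlap in 1 KO heart each.

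Chains that share a trimer or a fibril were also compared as ratios within a heart, which do not depend on how libraries are scaled. Of 6 ratios, 2 differed between the genotypes by an exact two-sided permutation test over hearts, whose smallest possible p is 0.00216. The log2 ratio of Col4a1 to Col4a2 per kilobase of the transcript with the longest coding sequence was 0.751, 0.756, 0.734, 0.875 and 0.771 in KO A, KO B, KO 14, KO D and KO 15, and 0.643, 0.722 and 0.750 as lowest, median and highest in WT. All KO hearts but KO 14 lay above the WT range, KO A by a hair, and the means differed by 0.06 (exact permutation p = 0.00649, adjusted over the 6 ratios p = 0.039). The log2 ratio of Col6a1 to Col6a2 was -0.231, -0.186, -0.202, -0.258 and -0.155 in the KO hearts and -0.414, -0.309 and -0.247 in WT. Here all KO hearts but KO D lay above the WT range, with a difference of 0.11 (exact permutation p = 0.0130, adjusted p = 0.039). Both differences are small, amounting to ratios of 1.71 in KO against 1.64 in WT hearts and of 0.867 against 0.802. Without WT 7 and WT 11 they were 0.07 and 0.10, no longer past the threshold in the 9 remaining hearts (adjusted p = 0.111 for both). Without KO B and KO D they were 0.04 and 0.12 (adjusted p = 0.393 and 0.214). The level of a ratio depends on the transcript lengths used, while the difference between the genotypes does not. The ratios of Col1a1 to Col1a2, Col3a1 to Col1a1, Col4a5 to Col4a6 and Col5a1 to Col5a2 differed by -0.03, 0.05, -0.03 and -0.12 (exact permutation adjusted p from 0.255 to 0.738).

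The genes that modify, fold, trim, link, bind and degrade collagen were read from the same fit. Of 90 such genes in 8 lists, 28 rose and 2 fell by the same edgeR test, with a median log2 fold change of 0.14 and 71 genes above 0, beside 2160 higher and 1372 lower of 24177 genes in all and a median of -0.02. The lists were put together with earlier results of these data known, so these counts describe them and do not test them. Of the 90 genes, 81 reached a mean of 1 CPM in WT hearts, beside 13971 of all 24177. The all-gene counts thus hold more genes at low levels. Of the 30 called genes, 17 passed the threshold in each of the 11 fits that left out 1 heart. The other 13 (Serpinh1, Adamts2, Loxl3, Pxdn, Thbs2, Bgn, Ogn, Fn1, Itga1, Ctsk, Mmp14, Lamb3 and Lamb1) each lost the call in at least 5 of those fits. Without WT 7 and WT 11 the pathway count was 19 higher and 2 lower, and without KO B and KO D it was 18 higher and 1 lower. The fit without WT 7 and WT 11 lost Serpinh1 and newly called Mmp15 lower, and it newly called Loxl4 and Mmp9 higher.

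Of 15 genes that modify proline and lysine, 6 rose and none fell, with a median of 0.19. P4ha1, the main catalytic subunit of collagen prolyl 4-hydroxylase, had 110, 143, 251, 292 and 321 CPM in KO A, KO B, KO 14, KO D and KO 15, and 85.3, 93.6 and 121 CPM as lowest, median and highest WT heart. P4ha2, an alternative catalytic subunit, had 41.6, 56.8, 115, 112 and 158 CPM in the KO hearts and 37.1, 41.96 and 49.1 CPM in WT. Plod2, the lysyl hydroxylase of the telopeptides where cross-links form, had 108, 129, 231, 231 and 279 CPM in the KO hearts and 93.9, 102 and 118 CPM in WT. In all 3 genes KO A lay inside the WT range, KO B not far above it, and KO 14, KO D and KO 15 well above. Their log2 fold changes were 1.16 ± 0.24, 1.19 ± 0.26 and 0.90 ± 0.20 (edgeR adjusted p = 0.00766, 0.0119 and 0.0119). Plod1, another lysyl hydroxylase, had every KO heart (88.9 to 159 CPM, with KO A lowest) above every WT heart (78.2 to 88.6 CPM), with a log2 fold change of 0.60 ± 0.12 (edgeR adjusted p = 0.00601). P3h2 and Plod3 rose by 0.46 and 0.33. P4hb, the shared partner subunit, and Ppib, the prolyl isomerase, were at 0.19 ± 0.08 and 0.02 ± 0.05 and were not called.

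The windows just upstream of P4ha1 and P4ha2 are printed because these 2 genes had the largest fold changes of the list. They hold the 250 bases before the RefSeq start (GRCm38.p6, plus strand), at chr10:59323046-59323295 for P4ha1 and chr11:54100674-54100923 for P4ha2. Capitals mark 3 searched motifs on either strand: ACGTG and GCGTG, the core letters of the hypoxia response element, and TGACG, the half-site of the cAMP response element.
P4ha1: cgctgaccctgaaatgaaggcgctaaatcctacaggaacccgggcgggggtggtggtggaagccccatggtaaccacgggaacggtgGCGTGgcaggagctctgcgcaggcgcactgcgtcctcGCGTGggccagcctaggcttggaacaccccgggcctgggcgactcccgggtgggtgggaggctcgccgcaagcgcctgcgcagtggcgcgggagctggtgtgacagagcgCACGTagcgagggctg
P4ha2: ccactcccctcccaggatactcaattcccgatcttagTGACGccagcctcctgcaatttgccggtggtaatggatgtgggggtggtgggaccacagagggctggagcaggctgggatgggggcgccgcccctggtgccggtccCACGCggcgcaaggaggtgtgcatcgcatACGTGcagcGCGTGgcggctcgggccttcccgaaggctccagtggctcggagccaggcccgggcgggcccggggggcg
In the same upstream window of all 32851 RefSeq promoters, 16.6% held ACGTG, 28.2% held GCGTG, 17.8% held TGACG and 1.55% the full cAMP site TGACGTCA, of which the half-site is a part. Of the collagen genes, 35 of 44 had an entry, with 38 promoters, and 5, 8, 4 and 0 of those 38 held the motifs in that order (13.2%, 21.1%, 10.5% and 0%). Among 13 promoters of the modification list, 6, 10, 4 and 0 held them. P3h1 and Colgalt1 entered with more than a single promoter, and Plod2 and P3h2, both called, had no entry. ACGTG or GCGTG was held by the called P4ha1, P4ha2, Plod1 and Plod3. It was also held by P3h1, Colgalt1, Ppib, Crtap and P4hb, which were not called. P3h3 and P4ha3, not called either, held neither. A link between motif and fold change was not tested. The windows of Col23a1 and Col15a1 held none of the 4.

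In folding and export, 1 of 12 genes rose and 1 fell, with a median of 0.08. Serpinh1, which encodes HSP47, lies on chromosome 7 (chr7:99345376-99353239), as does Pde2a (chr7:101421691-101512827). Whether its position near the targeted gene bears on its value was not tested. Serpinh1 had 1088, 1128, 1213, 1226 and 1121 CPM in the KO hearts and 1210, 1341 and 1590 CPM as lowest, median and highest in WT. KO A, KO B and KO 15 lay below the WT range, and the log2 fold change was -0.26 ± 0.07 (edgeR adjusted p = 0.036). That call held in 2 of the 11 fits that left out 1 heart, with an adjusted p of up to 0.0938 (without KO 15), and was lost without WT 7 and WT 11 (-0.25, adjusted p = 0.0622) and without KO B and KO D (-0.28, adjusted p = 0.0927). Creb3l2, a transcription factor of the secretory pathway, rose by 0.36 ± 0.08 on the log2 scale (edgeR adjusted p = 0.0151).

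In trimming, 2 of 8 genes rose, the N-proteinases Adamts2 and Adamts3, by 0.38 ± 0.11 and 0.39 ± 0.09 (edgeR adjusted p = 0.0376 and 0.0115), while Bmp1, the main C-proteinase, was at 0.01 ± 0.06. Without WT 7 and WT 11 Adamts2 and Adamts3 were at 0.40 and 0.35 and neither was called (adjusted p = 0.0778 and 0.0513). The call of Adamts2 was also lost without KO B and KO D (0.23, adjusted p = 0.225). In cross-linking, 3 of 7 rose. Loxl2, a lysyl oxidase that also acts on basement membrane collagen, had 239, 276, 347, 339 and 397 CPM in KO A, KO B, KO 14, KO D and KO 15 and 185, 206 and 229 CPM as lowest, median and highest in WT. Every KO heart lay above every WT heart, and the log2 fold change was 0.64 ± 0.11 (edgeR adjusted p = 0.00301). Loxl3 and Pxdn, the peroxidase that links type IV chains, rose by 0.41 ± 0.13 and 0.14 ± 0.04. Both calls were lost without WT 7 and WT 11 (0.45 and 0.10, adjusted p = 0.0857 and 0.154) and without KO B and KO D (0.44 and 0.14, adjusted p = 0.0816 and 0.125). Lox itself had 94.2, 118, 151, 201 and 194 CPM in the KO hearts and 71.5, 107 and 147 CPM in WT, with a log2 fold change of 0.52 ± 0.22 (edgeR adjusted p = 0.123).

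**Figure D5:**
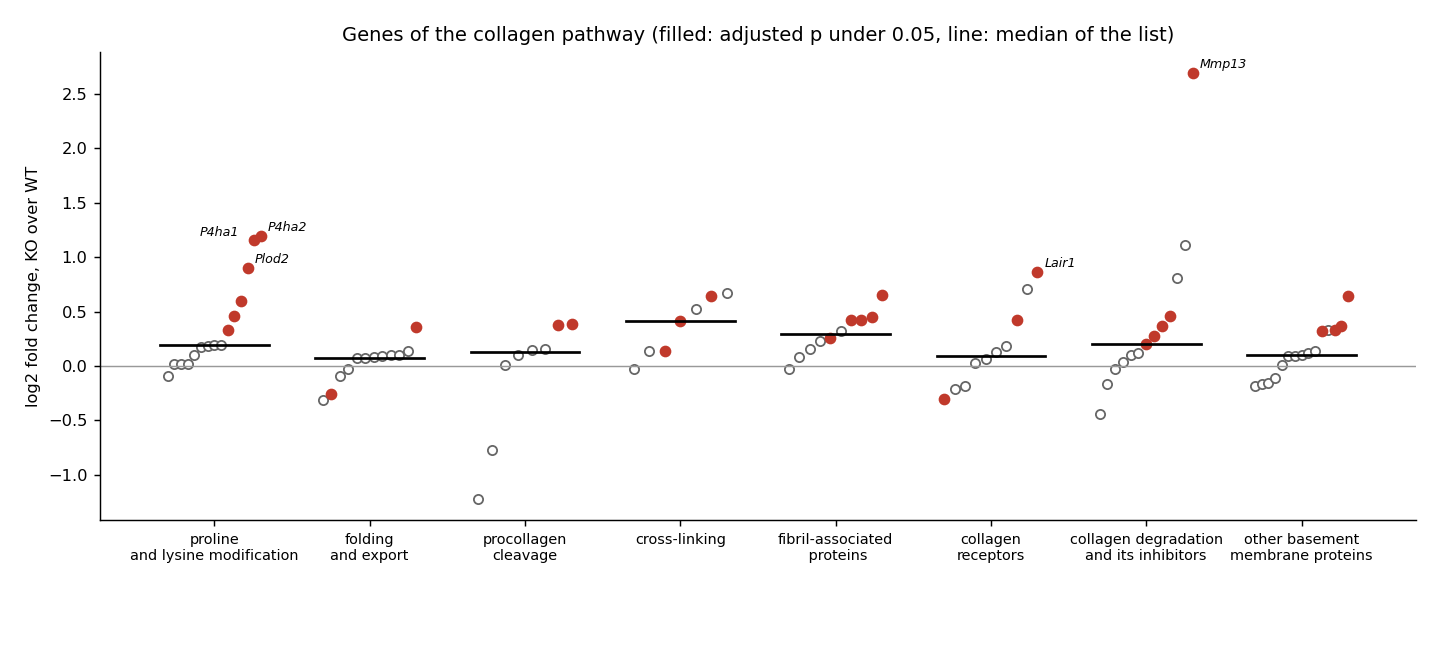
Each point is 1 of the 90 genes of the 8 collagen pathway lists, by log2 fold change KO over WT (vertical), filled where the adjusted p was under 0.05, with a line at the median of each list. The medians run from 0.08 for folding and export to 0.41 for cross-linking, and Mmp13 stands highest at 2.69.

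Among fibril-associated proteins, 5 of 10 rose and none fell, with a median of 0.29: Thbs2, Bgn, Postn, Ogn and Fn1. Postn, periostin of the valves and fibroblasts, had every KO heart (660 to 825 CPM) above every WT heart (462 to 621 CPM), with a log2 fold change of 0.42 ± 0.08 (edgeR adjusted p = 0.00484). Thbs2 rose by 0.65 ± 0.17 and Bgn, biglycan, by 0.45 ± 0.12. Without WT 7 and WT 11 the calls of Thbs2, Bgn and Fn1 were lost, at 0.69, 0.37 and 0.26 (adjusted p = 0.0554, 0.0897 and 0.0517). Without KO B and KO D those of Bgn, Ogn and Fn1 were lost, at 0.44, 0.43 and 0.24 (adjusted p = 0.0895, 0.0837 and 0.115). Of 10 collagen receptors 2 rose and 1 fell. Ddr1, a receptor tyrosine kinase that binds collagen, was at 285 to 311 CPM in KO hearts, below every WT heart (345 to 392.4 CPM), and fell by 0.30 ± 0.05 on the log2 scale (edgeR adjusted p = 0.00189). Itga1, the alpha chain of a type IV collagen integrin, rose by 0.42 ± 0.11 (edgeR adjusted p = 0.0282), a call that was lost without WT 7 and WT 11 (0.36, adjusted p = 0.0934). Lair1, an inhibitory receptor of leukocytes, rose by 0.86 ± 0.17 (edgeR adjusted p = 0.00581).

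In degradation, 5 of 13 genes rose and none fell, with a median of 0.20. Mmp13, a collagenase that cuts fibrillar collagen, had 1.54, 1.49, 1.24, 1.17 and 1.16 CPM in KO A, KO B, KO 14, KO D and KO 15, and 0.104, 0.176 and 0.398 CPM as lowest, median and highest WT heart. Every KO heart lay above every WT heart at a low level, and the log2 fold change was 2.69 ± 0.28 (edgeR adjusted p = 5.3e-05). Mmp2, a gelatinase, had 199 to 236 CPM in KO hearts above 161 to 184 CPM in WT hearts, and rose by 0.37 ± 0.05 (edgeR adjusted p = 0.00086). Timp3, a matrix-bound inhibitor of these proteinases, rose by 0.46 ± 0.10 (edgeR adjusted p = 0.0134), and Ctsk and Mmp14 by 0.28 and 0.20. Both of the last calls were lost without WT 7 and WT 11 (0.24 and 0.21, adjusted p = 0.117 and 0.0611) and without KO B and KO D (0.18 and 0.20, adjusted p = 0.179 and 0.0568). Mmp15 was not called, at -0.17 ± 0.06 (edgeR adjusted p = 0.0832). Its KO hearts (293.1 to 343.4 CPM) all lay below its WT hearts (343.9 to 420.9 CPM), by a hair. Without WT 7 and WT 11 Mmp15 was called lower, at -0.24 (edgeR adjusted p = 0.0417). Beside Mmp13, Ctsk and Lair1, 9 of 10 macrophage markers rose, where 8.93% of all genes tested did. The macrophage list summed to 214 to 295 CPM in KO and 107 to 169 CPM in WT hearts, without overlap. C1qa and Csf1r, at a log2 fold change of 0.91 ± 0.15 and 0.65 ± 0.12, were among the 9 markers that rose. Every marker of that list was detected, at a level above 0 CPM in every heart, and their part in these values was not tested.

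Of 15 other basement membrane proteins 4 rose and none fell, with a median of 0.10. Agrn, agrin, had every KO heart (448 to 518 CPM) above every WT heart (370 to 424 CPM), with a log2 fold change of 0.32 ± 0.05 (edgeR adjusted p = 0.00142). Nid1, nidogen, which joins laminin to type IV collagen, rose by 0.33 ± 0.07 (edgeR adjusted p = 0.00874), and the laminin chains Lamb3 and Lamb1 by 0.64 ± 0.19 and 0.37 ± 0.12. Lamb1 had 662, 657, 862, 930 and 1101 CPM in the KO hearts, with KO A and KO B inside the WT range of 614 to 689 CPM, and its call was lost without WT 7 and WT 11 (0.33, adjusted p = 0.133). Without KO B and KO D the calls of Lamb3 and Lamb1 were both lost (0.69 and 0.43, adjusted p = 0.083 and 0.0549). Hspg2, perlecan, was at 0.09 ± 0.06 and was not called.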

How the data were processed

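Hearts of 5 KO and 6 WT embryos were measured by stranded, single-end poly(A) RNA-seq on an Illumina NextSeq 500. Per the labels, the authors mapped reads to GRCm38 (mm10) with STAR and deposited its raw gene counts. The STAR version and annotation release are not given in the sources used here. Column 4, the strand of these libraries, was used; gene counts per heart were 35865537 to 42835382, and the opposite strand held 0.673 to 1.47 counts per 100 for the 25 collagen genes with at least 10000 counts. All 55487 gene identifiers were matched to GENCODE M21, which named 55227. Other genes' exons covered at most 1.54% of a collagen gene's exons on its strand. Genes with at least 10 counts over all hearts were fitted with edgeR 4.0.16 (R 4.3.3, TMM, quasi-likelihood F test, Benjamini-Hochberg adjustment over 24177 genes, no covariate, threshold 0.05). The common biological coefficient of variation was 16.8%. DESeq2 1.42.0 and other settings served as alternatives. CPM values were scaled to TMM library sizes, and levels and ratios per kb used the transcript with the longest coding sequence in place of the planned exon length. The fit was tested on simulated data with a log2 change of 2 and the same common dispersion for every gene. There 200 of 200 changed genes were recovered among 23750, with 9 wrong calls. Changes as small as those of the called collagen genes were not simulated, so recovery at that size is not known. Replicates are separate embryos; litters are not known, so p-values measure the spread between these hearts. The 5 called collagen genes and the 8 highest per kb in WT hearts were given in full, and in pathway lists the called genes with the largest changes, with P4ha1, Plod2, Serpinh1 and Lox in any case. Members and lists were chosen with earlier results of these data known.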

Additional observations from a re-analysis of the deposited data

Results flagged for a closer look

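Among 102 groups of hearts examined for 1 heart far from the rest (each of 44 collagen genes, each of 6 chain ratios and the total collagen share, in each genotype), 6 held such a heart by Dixon's test. Chance alone flags about 1 group in 20. Col10a1 was at 0.951 CPM in WT 11 and at 0 to 0.216 CPM in the other WT hearts. Col6a4 was at 0.756 CPM in WT 7 and at 0.0994 to 0.336 CPM in the other WT hearts. Both are hearts that also stood apart in Epcam, and whether the values share a source was not tested. Col22a1 was at 2.72 CPM in KO D and at 1.84 to 2.07 CPM in the other KO hearts. Col4a3 was at 3.42 CPM in KO 15 and at 2.22 to 2.56 CPM in the others. The log2 ratio of Col4a1 to Col4a2 was 0.875 in KO D against 0.734 to 0.771 in the other KO hearts, and 0.643 in WT 8 against 0.717 to 0.750 in the other WT hearts.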

How the results depend on the processing

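No paired analysis was possible because the groups share no replicate number. The count of 4 higher collagen genes was 1 with a fold of at least 1.5, 9 at an unadjusted p, 2 without WT 7 and WT 11 and 1 without KO B and KO D (both left out after seeing the data), and 2 to 7 when 1 heart was left out (7 without KO A and 2 without KO 14, KO 15, KO D, WT 6 or WT 8). The count of 1 lower gene was 2 with DESeq2 or with Xist as covariate, 3 at an unadjusted p, and 1 to 2 with 1 heart left out, where 2 came without KO A (the added gene in each count of 2 was Col13a1). The 28 higher pathway genes became 19 without WT 7 and WT 11, 18 without KO B and KO D, and 16 to 33 with 1 heart left out (16 without KO D, 17 without KO 15 or WT 6, 18 without KO 14), and the 2 lower became 4 with DESeq2, 1 without a count filter or without KO B and KO D, and 1 to 2 with 1 heart left out, since Serpinh1 lies near the threshold. The called ratio differences, Col4a1 to Col4a2 and Col6a1 to Col6a2, ran from 0.04 to 0.08 and from 0.09 to 0.13 with 1 heart left out, past the threshold in 4 and 2 of those 11 tests, and were 0.07 and 0.10 without WT 7 and WT 11 and 0.04 and 0.12 without KO B and KO D, all 4 short of the threshold with fewer hearts. Directions turned in genes and ratios that were not called: without WT 7 and WT 11, Col11a2 (0.17), Col5a3 (0.29), Col7a1 (0) and Col8a2 (0.06); without KO B and KO D, Col1a1 (-0.02), Col20a1 (-0.30), Col22a1 (-0.07), Col7a1 (0.02) and Col9a3 (-0.04); with the style of a heart's name (letter or number) as covariate, Col20a1 (-0.23), Col22a1 (-0.01) and Col9a3 (-0.01); with Xist as covariate, Col9a2 (-0.05). With 1 heart left out the log2 fold changes spanned 0 in Col11a2 (-0.34 to 0.21), Col16a1 (-0.01 to 0.08), Col1a1 (-0.11 to 0.22), Col1a2 (-0.03 to 0.22), Col20a1 (-0.07 to 0.35), Col22a1 (-0.09 to 0.14), Col5a3 (-0.43 to 0.04), Col6a6 (-0.05 to 0.09), Col7a1 (-0.11 to 0.05), Col8a2 (-0.18 to 0.06), Col9a2 (-0.07 to 0.07) and Col9a3 (-0.04 to 0.16), and the ratios of Col1a1 to Col1a2 (-0.07 to 0.01), Col3a1 to Col1a1 (-0.02 to 0.13) and Col4a5 to Col4a6 (-0.06 to 0.01). Causes were not tested. The table holds no protein, cell type or litter, and depth limits the 5 collagen genes under 1 CPM.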
